A study of Mus musculus with 20 samples.

Results

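Gene expression was compared between LLC1 tumors of mice given cisplatin together with KW6002 and tumors of mice given cisplatin alone. The members were chosen by label, as the 5 tumors titled cisplatine+KW (cotreated) and the 5 titled cisplatine (cisplatin), which are 10 of the 20 tumors of the series. The other 10 tumors, 5 given vehicle and 5 given KW6002, entered the estimate of the spread. LLC1 is a Lewis lung carcinoma line of C57BL/6 mice. The cells were injected under the skin of the flank with Matrigel in male C57Bl6/J mice of 8 to 10 weeks, and mice were assigned to the 4 groups at random once the tumors had grown. Each tumor gave 1 library of poly(A)-selected RNA from whole tissue, so host cells contribute to every value, and a single carcinoma line stands for the tumor. In such bulk RNA, fewer cells of a type and less RNA per cell cannot be told apart.

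Cisplatin forms platinum crosslinks in DNA, which block replication forks and activate p53. KW6002 (istradefylline) is an antagonist of the adenosine receptor encoded by Adora2a. When adenosine binds it, this receptor raises cyclic AMP, which activates protein kinase A. In tumors this receptor is best known on immune cells, where adenosine restrains inflammation. The comparison asks what KW6002 adds to gene expression in a tumor that also receives cisplatin.

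The 5 cisplatin libraries held 29.8 to 39.3 M reads and the 5 cotreated libraries 29.4 to 41 M reads. Of 35226 genes, 16665 had enough counts to be tested, with edgeR on all 20 tumors. Their common biological coefficient of variation was 0.163, and the lowest Spearman correlation between tumors of a group was 0.979 for cisplatin and 0.986 for cotreatment. Of 7 lung epithelium markers read, the keratin genes Krt8 and Krt18 made up at least 98.5% of the summed level in each of the 10 tumors (165 to 215 and 285 to 378 CPM, the read count relative to a library size adjusted by TMM). Cdh1 and Muc1 were at 1.41 to 4.19 CPM, while Epcam, Sftpc and Scgb1a1, at 0 to 0.144 CPM, did not pass the filter on low counts. Skeletal muscle markers differed widely within both groups, from 5.64 to 334 CPM in cisplatin and from 5.8 to 1485 CPM in cotreated tumors, with the top value in cotreated replicate 4. The libraries fall into an earlier and a later run of codes, and what the codes stand for is not given in the sources used here. The earlier run holds cisplatin replicates 1 and 2 and cotreated replicates 1, 2 and 3. The later run holds cisplatin replicates 3, 4 and 5 and cotreated replicates 4 and 5.

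The NDR kinase genes Stk38 and Stk38l, their scaffold gene Fry and the glutathione synthesis gene Gclc were higher in cotreated than in cisplatin tumors, as were 10 of 30 glucocorticoid responsive and 7 of 23 FOXO responsive genes, of which 3 stand on both lists. Both of these lists were put together after the values were seen. Lower were 9 of 55 genes of DNA replication (16.4%), 5 of 40 of nucleotide synthesis (12.5%) and 7 of 35 chemokines and chemokine receptors (20%). The number given for a list is that of its tested genes. Calls within any list are to be read against the shares of all tested genes given next. In total 667 of 16665 genes (4%) passed an adjusted P value under 0.05 and an absolute log2 fold change of at least 0.32. Of these, 382 were higher after cotreatment (2.29%) and 285 were lower (1.71%). The median change of all tested genes was -0.01 on the log2 scale. Most differences were small, with a median absolute log2 fold change of 0.57 among the higher and 0.47 among the lower genes, and 78 higher and 22 lower genes changed by at least 1. The 5 cotreated and the 5 cisplatin tumors did not overlap in 805 genes (4.83% of those tested), among them 184 of the higher and 129 of the lower genes.

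The counts rested in part on single tumors and on the run of library codes. With the run as a term, 570 genes were called (3.42%), 331 higher (1.99%) and 239 lower (1.43%), and 548 of them were also called without it. Among the genes described here, Rfc2, Bop1, Kif23, Entpd1, Bcl2l11 and Itga5 then missed the fold limit. Ccne1, Zbp1, Dusp4, Gstt1, Krt20, Phlda1, Chaf1b, Fosl1 and Amotl2 missed the adjusted P value, which ran from 0.0525 for Chaf1b to 0.0812 for Krt20 (edgeR). When cotreated replicate 2 was left out, 289 genes were called, and 295 when replicate 3 was. Leaving out cisplatin replicate 3 gave 396 calls and cotreated replicate 1 gave 454, whereas 1013 genes were called in the absence of cotreated replicate 4. The count was 217 when the spread was taken from these 10 tumors alone. Of the 83 called genes taken by the rule for named genes, 40 then lost their call. The SE and adjusted P values given for single genes use the spread of all 20 tumors.

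**Figure D1:**
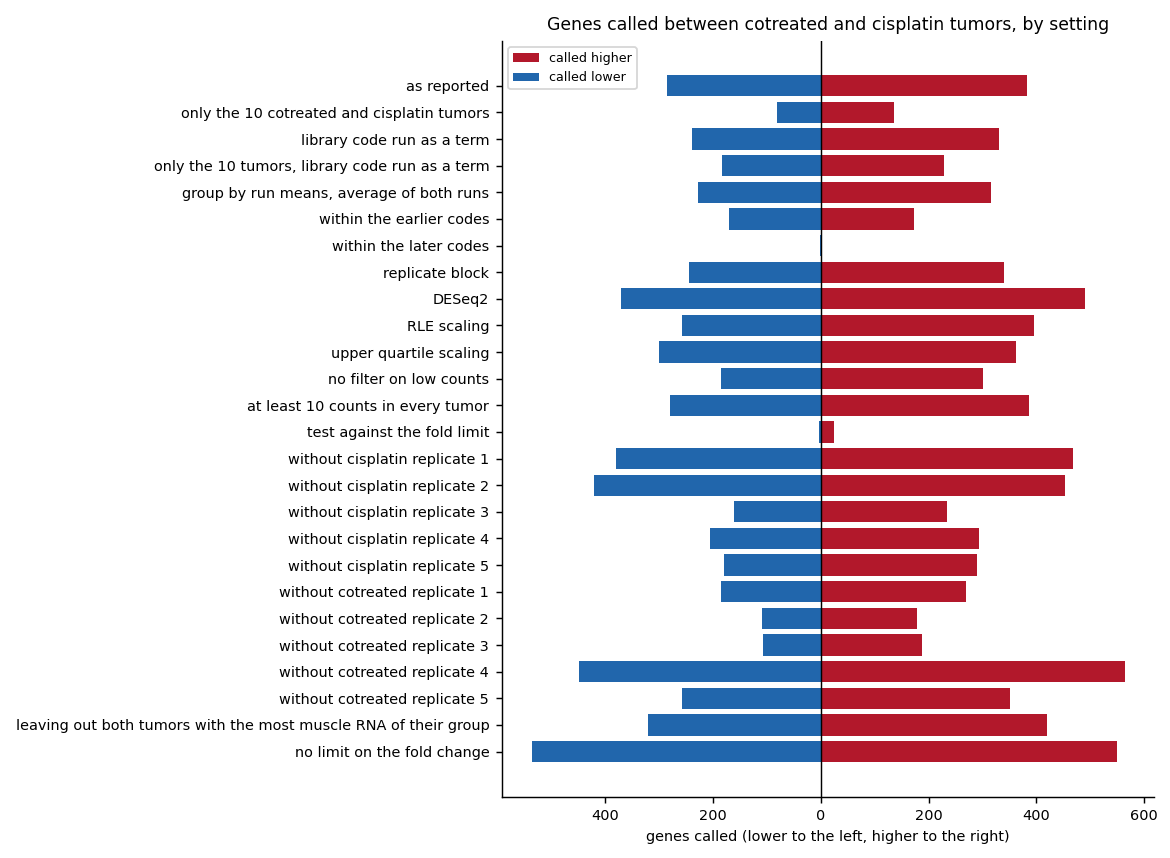
Genes called between cotreated and cisplatin tumors (edgeR, or DESeq2 where named) under each setting, with the number called lower drawn to the left and higher to the right. The 382 higher and 285 lower genes of the reported fit rose to 564 and 449 without cotreated replicate 4 and fell to 179 and 110 without cotreated replicate 2.

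The smallest adjusted P values among raised genes belonged to Stk38, which encodes NDR1, a kinase of the Hippo-related NDR family. Stk38 (ENSMUSG00000024006, GRCm38 chromosome 17, 28970880 to 29007995) was measured at 194, 193, 178, 201 and 206 CPM in cisplatin replicates 1 to 5 and at 310, 402, 420, 242 and 349 CPM in cotreated replicates 1 to 5. All cotreated tumors lay above all cisplatin tumors, with replicate 4 the nearest to them. The log2 fold change was 0.83 ± 0.10 (SE; adjusted P = 0.000601, edgeR), 0.96 within the earlier and 0.60 within the later codes. KW6002 without cisplatin left Stk38 at 157.3 ± 9.78 CPM, against 155.0 ± 9.90 CPM in vehicle (SD, n = 5).

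Stk38l, which encodes the second NDR kinase, rose from 24.6 ± 3.40 to 34.4 ± 2.34 CPM (SD, n = 5; log2 fold change 0.48 ± 0.09, adjusted P = 0.00411, edgeR). Fry, a scaffold that binds NDR kinases, was at 2.72 to 3.27 and 3.96 to 4.98 CPM (0.56 ± 0.12, adjusted P = 0.00713, edgeR). Neither gene overlapped between the groups. Of 29 tested genes on a list of Hippo pathway kinases and targets, 4 were higher (Stk38, Stk38l, Fry and the transcription factor gene Tead3) and 2 lower (Wwc1, which encodes the scaffold KIBRA, and Amotl2, an angiomotin gene), with a median log2 fold change of 0.05. The count of 6 was 3 without cotreated replicate 3 and 9 without cotreated replicate 4. The core kinase genes Lats1 and Lats2 had values of 0.07 and -0.03 and did not pass the test.

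The promoter of Stk38l held a full cyclic AMP response element (CRE), the palindrome TGACGTCA bound by the CREB family, 64 bases before the start site. The stretch is shown because protein kinase A acts through CREB, and the capitals mark the element (RefSeq, GRCm38.p6, chr6:146724810-146724929, plus strand).
Stk38l: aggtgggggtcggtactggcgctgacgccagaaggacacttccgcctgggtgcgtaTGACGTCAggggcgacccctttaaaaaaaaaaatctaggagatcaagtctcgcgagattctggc
The element was present on either strand in 6 of 268 promoters of higher genes (2.24%), 9 of 213 of lower genes (4.23%) and 361 of 11443 of all tested genes (3.15%), each over 300 bases. Among the genes described here, the lowered Umps, Gzmf, Gzmc and Ch25h held it as well. The match is a description of the sequence and no evidence of binding.

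Prkacb (ENSMUSG00000005034, chromosome 3, 146729574 to 146812990), which encodes a catalytic subunit of protein kinase A, was at 272, 255, 233, 224 and 226 CPM in cisplatin and at 387, 360, 369, 300 and 303 CPM in cotreated tumors, in replicate order. The groups did not overlap, and both groups were higher in the earlier than in the later codes. The log2 fold change was 0.51 ± 0.07 (adjusted P = 0.000723, edgeR), and Prkacb was 1 of only 2 genes called within the later codes alone (0.41, adjusted P = 0.0201, edgeR), beside Ccl12.

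Gprc5b (ENSMUSG00000008734, chromosome 7, 118972047 to 118995211), an orphan receptor gene, rose from 52.1 ± 7.09 to 91.8 ± 11.1 CPM (SD, n = 5; log2 fold change 0.82 ± 0.11, adjusted P = 0.000606, edgeR). Enpp2 (ENSMUSG00000022425, chromosome 15, 54838901 to 54952892) encodes autotaxin, the secreted enzyme that makes lysophosphatidic acid. It was at 101, 104, 95.8, 97 and 86.1 CPM in cisplatin and at 169, 141, 144, 171 and 126 CPM in cotreated tumors. Unlike Stk38, Enpp2 was highest in cotreated replicate 4, and its log2 fold change was 0.56 in the earlier and 0.67 in the later codes (0.63 ± 0.09 over both, adjusted P = 0.000723, edgeR). Exons of Gprc5b overlap the tested gene Iqck on the other strand, and the strand option of the counting is not given in the sources used here, so reads of such pairs may not be told apart. The same holds for Zhx3, Sybu, Bop1, Rpl31, Rad54l and Cxcl10, which overlap Plcg1, A930017M01Rik, Mroh1, Tbc1d8, Lrrc41 and Art3. It also holds for Gss, Glul, Txnip, Nt5c2, Adora1 and Ccnd1, which overlap Acss2, Teddm2, Gm15441, AC122442.1, Mybph and LTO1. Itga10 and Pkm overlap tested genes on their own strand (Gm42957 and Gm49759), where strand does not separate the reads.

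Itga10 (ENSMUSG00000090210, chromosome 3, 96645584 to 96664519), a collagen-binding integrin of cartilage, showed one of the steepest rises. It was at 25.6, 26.4, 29.5, 28.9 and 25.2 CPM in cisplatin and at 70.1, 97, 108, 40.5 and 74.4 CPM in cotreated tumors, a difference of 1.52 ± 0.19 on the log2 scale (adjusted P = 0.000645, edgeR). The cisplatin tumors were tightly grouped, and the cotreated tumors were spread, with replicate 4 lowest. Itga5, the fibronectin receptor chain, was the other raised member of 34 integrins and laminins (0.32 ± 0.07, adjusted P = 0.0138, edgeR). That call was lost without cisplatin replicate 1 or cotreated replicate 1, 2 or 3 (highest adjusted P 0.0564).

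Also among the 10 leading raised genes by adjusted P value were Prune2, Zhx3, Ndrg2, Hhipl1 and 4930523C07Rik, none of which overlapped between groups. Prune2 (ENSMUSG00000039126, chromosome 19, 16956118 to 17223932) rose from 165.2 ± 18.4 to 301.3 ± 63.0 CPM (SD, n = 5). Zhx3, a homeobox repressor gene, rose from 26.3 ± 1.75 to 49.4 ± 11.6 CPM, Hhipl1 from 64.3 ± 4.06 to 114.2 ± 22.2 CPM and 4930523C07Rik from 25.8 ± 3.58 to 44.6 ± 6.70 CPM. In each of Prune2, Zhx3, Hhipl1 and 4930523C07Rik the lowest cotreated tumor was replicate 4. Ndrg2, a differentiation and stress response gene, was at 39.4 to 57.6 CPM in cisplatin and 62.5 to 84.4 CPM in cotreated tumors, and there replicate 4 was highest (log2 fold change 0.65 ± 0.09, adjusted P = 0.000723, edgeR).

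By size of change the leading raised genes were, among those without overlap between groups, with a mean of at least 50 counts and called with and without the run term, Tcf23, Zbtb16, Itga10, Gm43844 and Sybu. Tcf23, a basic helix-loop-helix factor gene, was at 0.846, 0.914, 1.15, 1.01 and 1.29 CPM in cisplatin and at 2.84, 8.27, 5.63, 1.46 and 6.68 CPM in cotreated tumors (log2 fold change 2.25 ± 0.35, adjusted P = 0.00179, edgeR). Its vehicle level was 0.10 CPM, and its log2 fold change against vehicle was 3.29 after cisplatin and 5.54 after cotreatment. Sybu, which encodes syntabulin, a linker of vesicles to kinesin, rose from 5.53 ± 1.67 to 14.0 ± 5.75 CPM (SD, n = 5). Gm43844, a transcript of unsettled coding status, rose from 2.64 ± 0.37 to 7.07 ± 3.10 CPM.

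**Figure D2:**
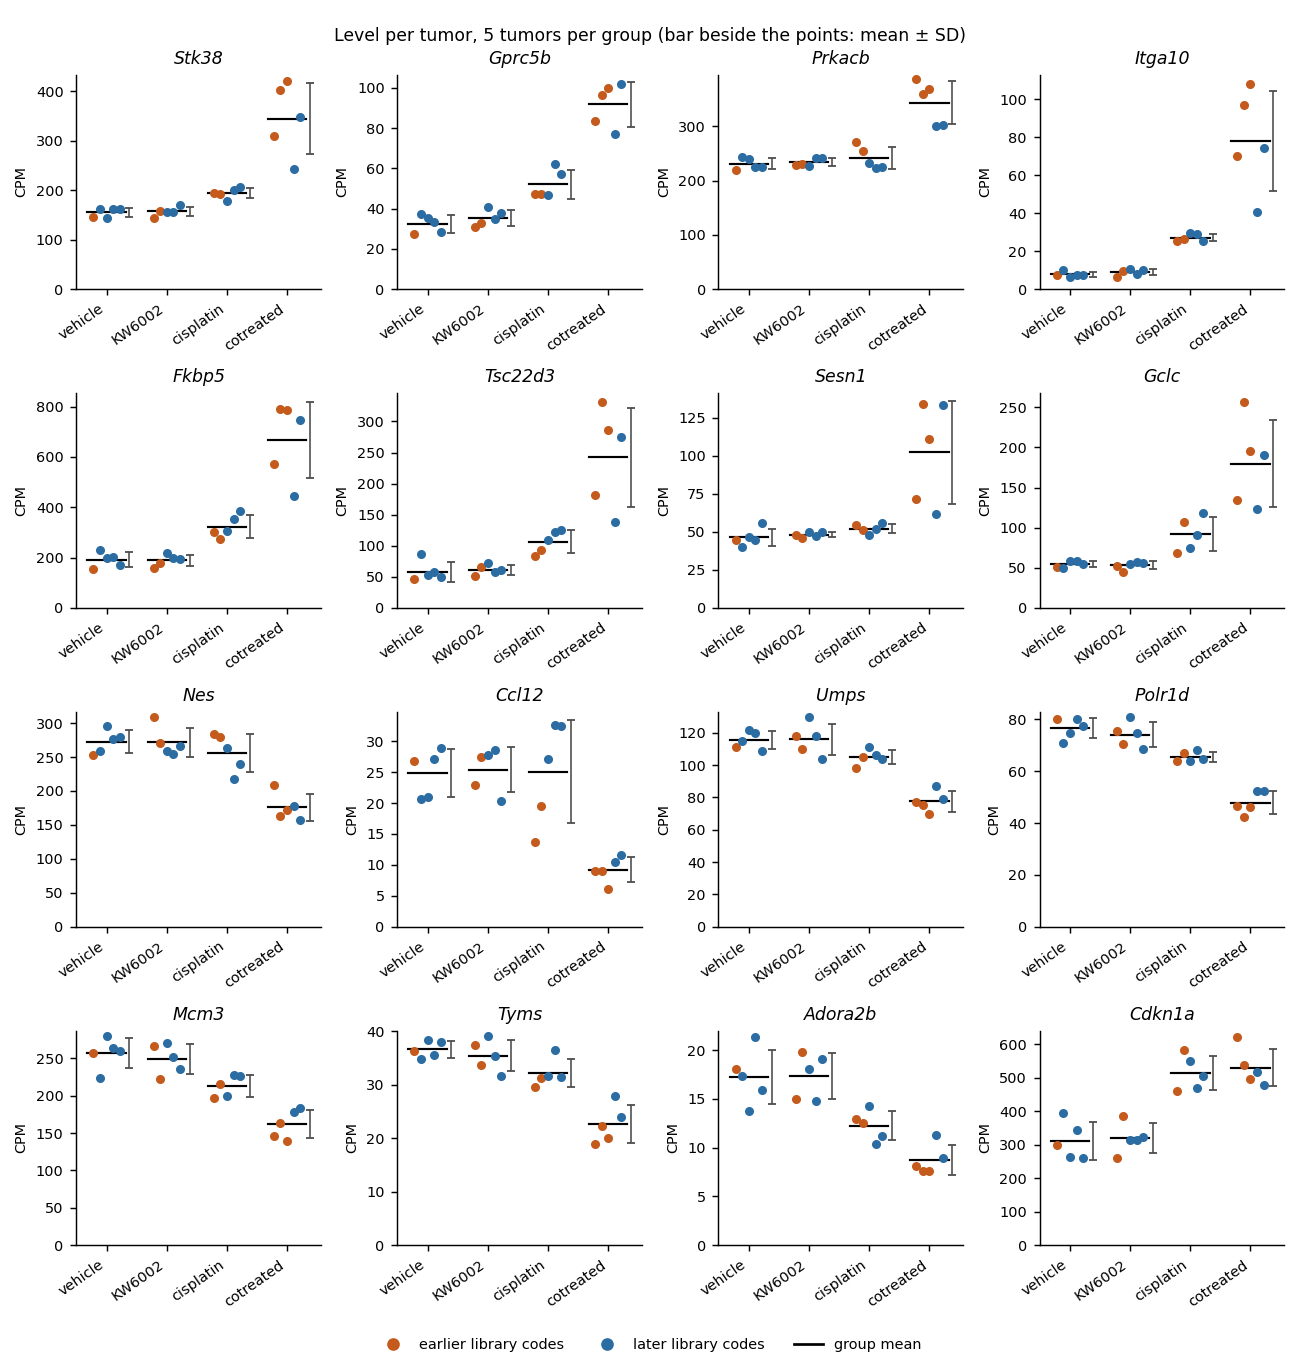
Level of 16 genes in each of the 20 tumors (CPM, axes start at 0), by group, with points coloured by run of library codes, a black line at the group mean and a bar of mean ± SD over 5 tumors. Stk38 lies at 178 to 206 CPM in cisplatin and 242 to 420 CPM in cotreated tumors, whereas Cdkn1a covers 461 to 581 and 478 to 622 CPM.

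Several strongly raised genes are known targets of the glucocorticoid receptor, and a list of 30 such genes was put together after these values were seen. Of the 30, 10 were higher and 0 lower by edgeR, with a median log2 fold change of 0.43, against -0.01 over all tested genes. Because the list was made with these values known, its count and median are no independent evidence. Fkbp5 (ENSMUSG00000024222, chromosome 17, 28399094 to 28517527), a cochaperone of the receptor, was at 300, 273, 305, 353 and 385 CPM in cisplatin and at 574, 790, 785, 446 and 745 CPM in cotreated tumors (log2 fold change 1.05 ± 0.15, adjusted P = 0.000778, edgeR). Tsc22d3 (ENSMUSG00000031431, chromosome X, 140539528 to 140600659), which encodes the leucine zipper protein GILZ, was at 83.1, 92.6, 110, 122 and 126 CPM in cisplatin and at 182, 331, 287, 138 and 275 CPM in cotreated tumors (1.18 ± 0.21, adjusted P = 0.00492, edgeR). In both genes every cotreated tumor was above every cisplatin tumor, and cotreated replicate 4 was the lowest of its group.

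The other raised members were Zbtb16, Klf9, Hif3a, Ddit4, Angptl7, Txnip, Arrdc2 and Glul. Zbtb16 (PLZF, a transcription factor) was at 0.609 to 2.41 CPM in cisplatin and 2.92 to 7.69 CPM in cotreated tumors (log2 fold change 1.94 ± 0.43, adjusted P = 0.0122, edgeR). Klf9, a Krüppel-like factor gene, rose from 66.9 ± 8.80 to 125.3 ± 31.4 CPM, and Glul, the glutamine synthetase gene, from 148.6 ± 16.6 to 207.1 ± 33.0 CPM (SD, n = 5). Hif3a, which encodes an inhibitor of hypoxia-inducible factors, changed by 2.11 on the log2 scale (adjusted P = 0.0161, edgeR). Its call was lost without cotreated replicate 2 (adjusted P = 0.0529, edgeR).

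Other well-known targets did not pass the test. Per1, Sgk1 and Mt2 had values of 0.34, 0.27 and 0.29, and Nr3c1, the receptor gene itself, -0.07 (adjusted P = 0.652, edgeR). Within the earlier codes the median of the list was 0.91 and within the later codes 0.21. With the run as a term 11 members were called, without cotreated replicate 2 there were 7, and without cotreated replicate 4 there were 12. The calls of Ddit4 and Txnip were lost without cotreated replicate 2 or 3 or cisplatin replicate 3 or 4, among others (highest adjusted P 0.0776 and 0.0768). In vehicle and KW6002 tumors Fkbp5 was at 191.0 and 189.8 CPM, and the median of the list for KW6002 against vehicle was -0.03. A core bound by single receptor molecules, AGAACA on either strand, stood in 34 of 268 promoters of higher genes (12.7%), 20 of 213 of lower genes (9.39%), 1 of 25 of the glucocorticoid list (4.0%) and 1465 of 11443 of all tested genes (12.8%). The full palindromic element, with both cores spaced by 3 bases, stood in 0 of the 11443, which says only that these letters are not in these windows.

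Genes driven by FOXO factors, which act when insulin and growth factor signalling is low, were grouped in the same way after their values were seen, and 7 of 23 were higher and 0 lower by edgeR (median log2 fold change 0.22). The members were Sesn1, Bmf, Pik3ip1, Bcl2l11, Klf9, Txnip and Zbtb16, of which the last 3 also stand on the glucocorticoid list. The count of 7 was 6 with the run as a term. It was 5 without cisplatin replicate 3, 4 or 5 or cotreated replicate 2 or 3, and 8 without cisplatin replicate 2. Sesn1 (ENSMUSG00000038332, chromosome 10, 41809935 to 41908424), an inhibitor of mTORC1 signalling, was at 54.2, 51.3, 47.6, 51.6 and 56 CPM in cisplatin and at 71.6, 134, 111, 61.7 and 133 CPM in cotreated tumors (0.97 ± 0.16, adjusted P = 0.00275, edgeR). Bmf, a BH3-only gene of the BCL2 family that promotes apoptosis, was at 23.4 to 31.9 CPM in cisplatin and 44.3, 70.1, 67.2, 29.2 and 68.5 CPM in cotreated tumors (1.07 ± 0.19, adjusted P = 0.00378, edgeR). Cotreated replicate 4 fell within the cisplatin range of Bmf and the other 4 lay above it.

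A FOXO core, GTAAACA on either strand, was found in 9 of 268 promoters of higher genes (3.36%), 4 of 213 of lower genes (1.88%) and 294 of 11443 of all tested genes (2.57%). Klf9 holds one 100 bases before its start site, shown here with the core in capitals (RefSeq, GRCm38.p6, chr19:23141106-23141225, plus strand).
Klf9: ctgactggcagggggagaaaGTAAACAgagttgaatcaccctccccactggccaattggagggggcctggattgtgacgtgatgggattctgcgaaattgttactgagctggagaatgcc

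Of 55 DNA replication genes tested, 9 were lower and 0 higher by edgeR (8 called by DESeq2), and 53 of the 55 values were below 0, with a median log2 fold change of -0.17. The 9 genes were Mcm2, Mcm3 and Mcm5 of the replicative helicase, the loading factor Cdc6, the helicase cofactor Gins1, the clamp loader subunit Rfc2, the primase-polymerase gene Pola1, the nuclease Dna2 and the chromatin assembly factor Chaf1b, with log2 fold changes from -0.46 to -0.32. Mcm3 (ENSMUSG00000041859, chromosome 1, 20802968 to 20820312) was at 197, 215, 199, 227 and 226 CPM in cisplatin and at 146, 163, 140, 178 and 183 CPM in cotreated tumors (-0.39 ± 0.08, adjusted P = 0.00609, edgeR). The groups did not overlap, and cotreated replicates 4 and 5, of the later codes, were nearest to the cisplatin tumors.

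Dna2 was likewise lower in every cotreated tumor, at 16.7 to 20.1 CPM in cisplatin and 12.9 to 15.2 CPM in cotreated tumors (-0.40 ± 0.08, adjusted P = 0.00501, edgeR). The median of the list was -0.20 within the earlier and -0.11 within the later codes. With the run as a term 7 members were called, without cotreated replicate 2 there were 3, and without cotreated replicate 4 there were 12. Rfc2 was lost without cisplatin replicate 4 or 5 or cotreated replicate 1, 2 or 3 (smallest change -0.28), where it missed the fold limit. Its exons overlap those of Lat2 on the other strand.

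E2F sites, TTTCCCGC or TTTGGCGC on either strand, were present in 14 of 46 promoters of the replication list (30.4%), against 329 of 11443 of all tested genes (2.88%), 7 of 213 of the lower genes (3.29%) and 5 of 268 of the higher genes (1.87%). Mcm3 holds one of each form, the first 19 bases after its start site. They are shown in capitals because E2F factors drive S phase genes (RefSeq, GRCm38.p6, chr1:20820267-20820294, minus strand).
Mcm3: gGCGGGAAAacttgggaagtTTTGGCGC

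Of 40 nucleotide synthesis genes tested, 5 were lower (Umps, Tyms, Mthfd2, Shmt2 and Dctpp1) and 0 higher by edgeR, with a median of -0.17. Umps (ENSMUSG00000022814, chromosome 16, 33954782 to 33967038), which completes the synthesis of uridine monophosphate, was at 98.5, 105, 111, 106 and 104 CPM in cisplatin and at 77.1, 75.2, 69.7, 87.2 and 78.8 CPM in cotreated tumors (-0.43 ± 0.06, adjusted P = 0.000778, edgeR). Tyms (ENSMUSG00000025747, chromosome 5, 30058202 to 30073617), thymidylate synthase, was at 29.6 to 36.5 and 19.0 to 27.8 CPM (-0.50 ± 0.09, adjusted P = 0.00273, edgeR). Neither gene overlapped between the groups.

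The mitochondrial folate enzymes Mthfd2 and Shmt2, which supply one-carbon units, had log2 fold changes of -0.48 and -0.46 (adjusted P = 0.0105 and 0.0223, edgeR). Psat1, of serine synthesis, which feeds the same carbon units, fell from 217.1 ± 17.8 to 158.6 ± 16.9 CPM (SD, n = 5; adjusted P = 0.00275, edgeR). The count of 5 nucleotide genes was 3 without any 1 of cisplatin replicates 3, 4 and 5 and cotreated replicates 1, 2 and 3, and 7 without cisplatin replicate 2.

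An E-box (CACGTG, bound by MYC and related factors) stands 61 bases before the start of Tyms. A full CRE, the element whose shares are given with Stk38l, stands 3 bases after the start of Umps. These matches describe the sequence and are no evidence of binding. They are in capitals below (RefSeq, GRCm38.p6, both on the minus strand, chr5:30073626-30073745 and chr16:33967018-33967046).
Tyms: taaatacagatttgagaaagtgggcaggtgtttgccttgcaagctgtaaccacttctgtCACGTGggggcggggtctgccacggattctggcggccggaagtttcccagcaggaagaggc
Umps: ggacttctgggTGACGTCAcgggccccaa
The E-box stood in 22 of 213 promoters of lower genes (10.3%), 14 of 268 of higher genes (5.22%) and 1117 of 11443 of all tested genes (9.76%). It stood in 14 of 68 promoters of the RNA polymerase I and ribosome biogenesis list (20.6%), 6 of 35 of the nucleotide list (17.1%), 5 of 46 of the replication list (10.9%) and 6 of 25 of the glucocorticoid list (24%), whose called members were higher.

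The list of RNA polymerase I and ribosome biogenesis had 3 lower (3.9%, against 1.71% of all tested genes) and 0 higher members of 77 by edgeR, 2 with the run as a term, and 68 of its 77 values were below 0 (median -0.13). Polr1d (ENSMUSG00000029642, chromosome 5, 147077050 to 147111597), a subunit shared by RNA polymerases I and III, was at 63.9, 67.2, 63.8, 68.2 and 64.8 CPM in cisplatin and at 46.4, 42.3, 46, 52.4 and 52.5 CPM in cotreated tumors. The cisplatin tumors lay within a narrow band and every cotreated tumor lay below it (-0.45 ± 0.06, adjusted P = 0.000645, edgeR). Rrp12 and Bop1, ribosome assembly factors, changed by -0.35 and -0.33 (adjusted P = 0.00934 and 0.0249, edgeR), and the count of 3 was 1 without cisplatin replicate 5 or cotreated replicate 3 and 5 without cisplatin replicate 2.

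Of 79 cytosolic ribosomal protein genes 2 were lower (2.53%, against 1.71% of all tested genes), Rpl13a (-0.45, adjusted P = 0.0067, edgeR) and Rpl31 (-0.44, adjusted P = 0.0264, edgeR), and 74 of 79 values were below 0 (median -0.17). The call of Rpl31 was lost without cisplatin replicate 3, 4 or 5 or cotreated replicate 1, 2 or 3 (highest adjusted P 0.092), and 5 of the list were called without cisplatin replicate 2. Ribosomal protein genes have many near-identical pseudogenes, and only uniquely aligned reads were counted, so their levels are uncertain.

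**Figure D3:**
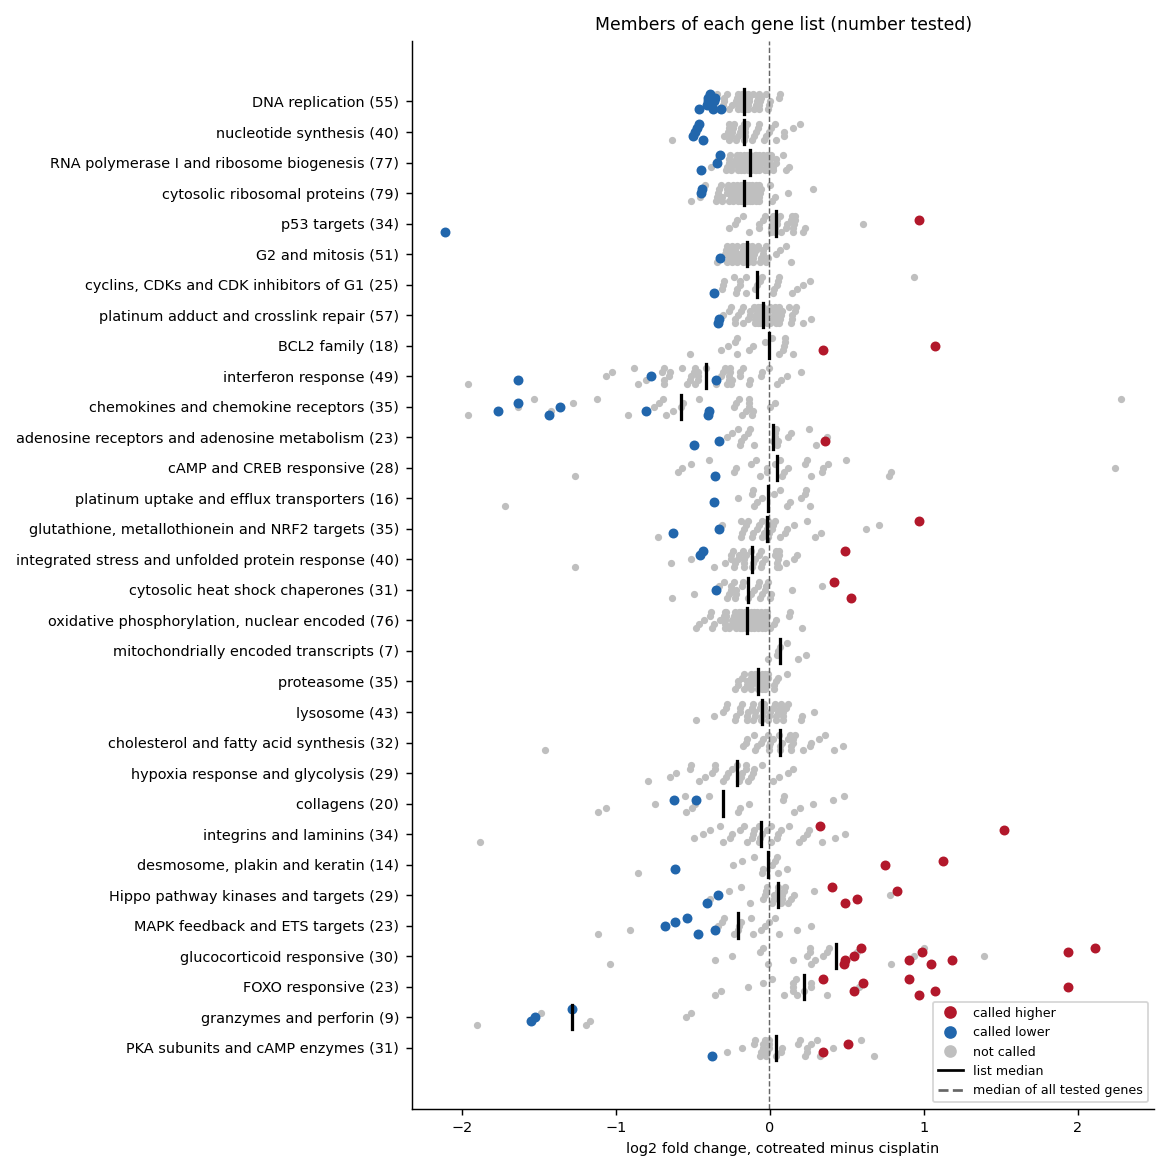
Log2 fold change between cotreated and cisplatin tumors of every tested member of 32 gene lists, with members called higher in red, called lower in blue and not called in grey, a black line at each list's median and a dashed line at the median of all tested genes. The glucocorticoid list has 10 red points and the DNA replication list 9 blue points within -0.46 to -0.32.

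Ccl12 (ENSMUSG00000035352, chromosome 11, 82101845 to 82103400), a chemokine that attracts monocytes, was at 13.7, 19.5, 27.2, 32.6 and 32.5 CPM in cisplatin and at 8.98, 9.04, 6.17, 10.4 and 11.6 CPM in cotreated tumors (-1.44 ± 0.21, adjusted P = 0.00112, edgeR). The groups did not overlap, and Ccl12 was higher in the later than in the earlier codes in both.

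Ccl12 passed the thresholds within the earlier codes (-1.04) as well as within the later (-1.48, adjusted P = 0.0201, edgeR). Of 35 chemokines and chemokine receptors tested (38 listed), 7 were lower and 0 higher by edgeR (10 called by DESeq2, median -0.58), namely Ccl4, Ccl7, Ccl12, Cxcl10, Cxcl16, Cx3cl1 and the eosinophil receptor Ccr3. The count of 7 was 2 without cotreated replicate 2 or 3, and 10 without cisplatin replicate 1 or cotreated replicate 4.

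Ccl4, which attracts macrophages and lymphocytes, was at 1.29 to 6.14 CPM in cisplatin and 0.341 to 2.2 CPM in cotreated tumors (-1.77 ± 0.43, adjusted P = 0.0213, edgeR). Cxcl10, an interferon-induced chemokine, was at 2.46 to 6.75 and 0.386 to 3.69 CPM (-1.64 ± 0.43, adjusted P = 0.0316, edgeR). Both genes overlapped between the groups, and each call was lost without cotreated replicate 1, 2 or 3 or cisplatin replicate 5 (highest adjusted P 0.0674 and 0.0927). The call of Cxcl10 was also lost without cisplatin replicate 3 or 4 or cotreated replicate 5. The median of the chemokine list was -0.14 within the earlier and -0.59 within the later codes.

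Of 49 interferon response genes 3 were lower and 0 higher by edgeR, and 45 of the 49 values were below 0 (median -0.42). Irf1, an interferon regulatory factor gene, fell from 71.3 to 91.8 CPM in cisplatin to 55.1 to 68.3 CPM in cotreated tumors (-0.35 ± 0.07, adjusted P = 0.00519, edgeR). Zbp1, a sensor of nucleic acids, had a value of -0.77 (adjusted P = 0.042, edgeR), and Cxcl10 was the third. The call of Zbp1 was lost without cisplatin replicate 1, 3, 4 or 5 or cotreated replicate 1, 2, 3 or 5 (highest adjusted P 0.128, edgeR). The count of 3 was 0 without cotreated replicate 2 or cisplatin replicate 5 and 14 without cotreated replicate 4. The list's median was -0.16 within the earlier and -0.35 within the later codes.

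Marker genes of immune cells overlapped in summed level between the groups, but most of their values were below 0. The median log2 fold change was -0.56 for T and NK cell (13 of 14 below 0), -0.51 for neutrophil (6 of 7), -0.74 for dendritic cell (7 of 8), -0.23 for macrophage (11 of 12) and -0.04 for B cell markers (3 of 5). Within the earlier codes the median was 0.48 for T and NK cell, 0.34 for neutrophil, 0.36 for B cell, 0.02 for macrophage and -0.12 for dendritic cell markers. Within the later codes these medians were -1.34, -0.76, -0.66, -0.30 and -0.81. The summed level of 12 macrophage markers was 3276 to 4466 CPM in cisplatin and 2783 to 3962 CPM in cotreated tumors, and 2 of the 12 were called lower (Aif1, -0.68, and Fcgr1, -0.51, adjusted P = 0.00743 and 0.0365, edgeR). The call of Fcgr1 was lost without cisplatin replicate 3, 4 or 5 or cotreated replicate 1, 2, 3 or 5 (highest adjusted P 0.12), and 3 macrophage markers were called without cotreated replicate 4. The 8 dendritic cell markers summed to 29.8 to 37 and 22.7 to 30.6 CPM, with Flt3 called lower (-0.84, adjusted P = 0.00582, edgeR). The 14 T and NK cell markers summed to 6.29 to 24.5 and 5.93 to 13.1 CPM. The 11 neutrophil markers (7 tested) summed to 28.6 to 98.7 and 26.6 to 46.4 CPM. By edgeR or DESeq2 0 were called in either list, and edgeR called 1 T and NK cell marker without cotreated replicate 5. At an unadjusted P value under 0.05 in edgeR were 1 of the 14 and 2 of the 7, against 3883 of all 16665 tested genes. In both lists the 2 highest tumors were cisplatin replicates 4 and 5. The part of these cells in the lowered chemokine, interferon and myeloid genes was not tested.

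All 8 tested adipocyte markers had values above 0, with a median log2 fold change of 2.57 (5.56 within the earlier and 0.21 within the later codes), and 0 were called (adjusted P = 0.266 to 0.473, edgeR). The 9 listed markers summed to 15.8, 13.5, 15.4, 37.4 and 23.9 CPM in cisplatin and to 96.1, 72.4, 31.2, 55.3 and 28.4 CPM in cotreated tumors (21.2 ± 9.91 and 56.7 ± 28.5 CPM, SD, n = 5). The groups overlapped, with cotreated replicates 1 and 2 highest. The part of adipocyte RNA in the raised genes was not tested. Of the other marker lists (muscle, epidermis, B cell, endothelium, fibroblast, pericyte, erythroid and lung epithelium) edgeR called a single gene, the endothelial junction gene Cldn5 (1.19, adjusted P = 0.0247, edgeR), and not without cisplatin replicate 3 or 4 or cotreated replicate 1 or 3. DESeq2 called 1 endothelial and 1 fibroblast marker. In edgeR 1 fibroblast marker was called without cisplatin or cotreated replicate 4, and 2 endothelial ones without cisplatin replicate 1. All 12 skeletal muscle markers had values above 0, with 0 called and a median log2 fold change of 1.06. That median was -0.97 within the earlier and 1.94 within the later codes.

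**Figure D4:**
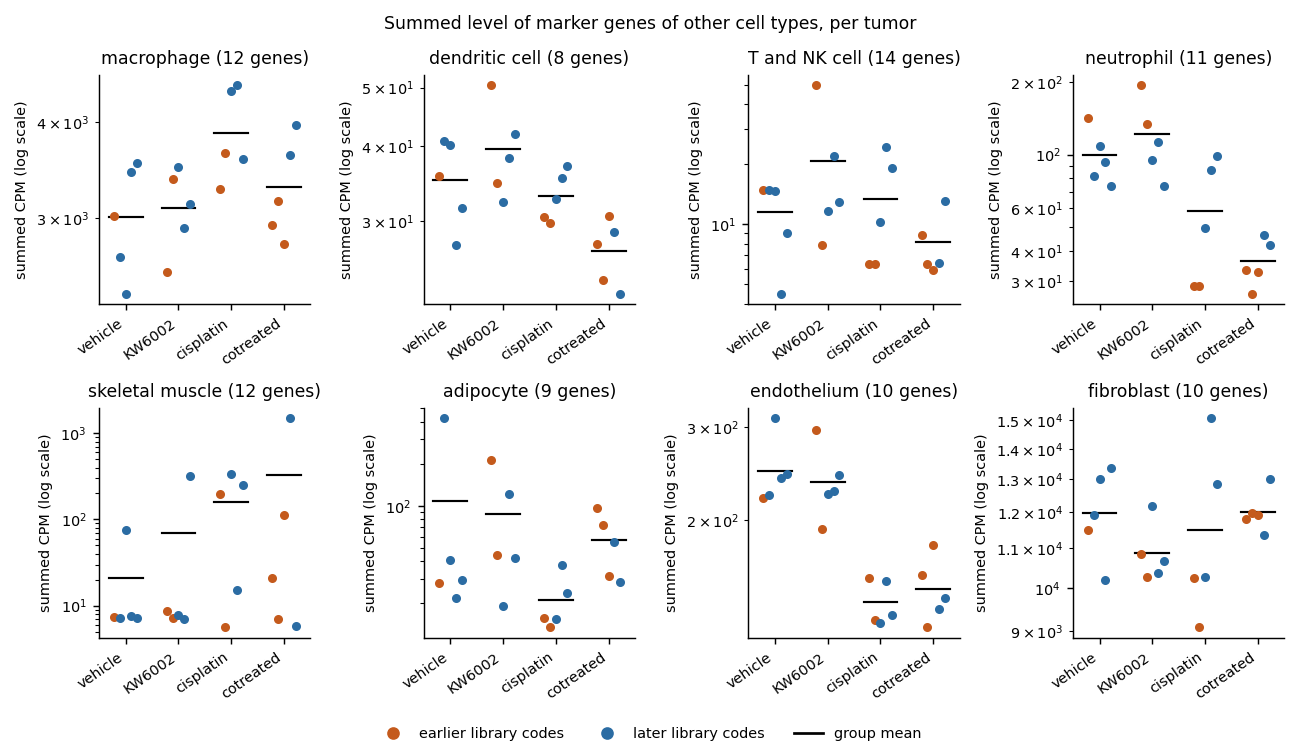
Summed level of marker genes of 8 other cell types in each tumor (CPM, log axes that differ between panels), by group, with points coloured by run of library codes and a line at the group mean. Macrophage markers lie at 3276 to 4466 CPM in cisplatin and 2783 to 3962 CPM in cotreated tumors, and muscle markers reach 1485 CPM in cotreated replicate 4.

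By size of change the leading lowered genes, chosen as the raised ones were, included Prf1 and Gzmf of killer cell granules. Gdf15, Ccl4 and Cxcl10, given elsewhere, fell further but were not taken by that rule. Prf1, which encodes perforin, was at 2.5, 2.13, 3.84, 4.45 and 5.25 CPM in cisplatin and at 0.758, 0.854, 0.989, 1.51 and 2.09 CPM in cotreated tumors (-1.55 ± 0.39, adjusted P = 0.0238, edgeR). Gzmf, a granzyme gene, was at 4.13 to 14.9 and 1.09 to 3.87 CPM (-1.53 ± 0.44, adjusted P = 0.0457, edgeR). The call of Prf1 was lost without cisplatin replicate 3, 4 or 5 or cotreated replicate 1, 2 or 3 (highest adjusted P 0.0763). Neither gene overlapped between groups, but with 14.9 CPM cisplatin replicate 3 stood apart for Gzmf, and without it the value was -1.04 (adjusted P = 0.16, edgeR).

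On a list of granzymes and perforin (10 listed, 9 tested), put together after these values were seen, Prf1, Gzmf and Gzmc were lower and all 9 values were below 0 (median -1.29). The count of 3 was 0 without cisplatin replicate 3 or 4 or cotreated replicate 1, 2 or 3, and 6 without cotreated replicate 4 or 5. Granzymes C and F have close relatives in 1 gene cluster, and reads that matched more than 1 copy were not counted, so their levels are uncertain. The T and NK cell markers, of which 13 of 14 were below 0 (median -0.56), summed to a mean of 13.3 ± 8.16 CPM after cisplatin and 8.11 ± 3.02 CPM after cotreatment (SD, n = 5), with overlap, and their part in these values was not tested.

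The other leading lowered genes had varied roles. Ch25h, which encodes the enzyme of an antiviral oxysterol, was at 6.99 to 10.4 CPM in cisplatin and 2.46 to 6.11 CPM in cotreated tumors (-1.25 ± 0.20, adjusted P = 0.00194, edgeR). Fcrls, a gene of macrophages and microglia, was at 56.4 to 77.5 and 16.8 to 44.3 CPM (-1.08 ± 0.29, adjusted P = 0.0351, edgeR), and its call was lost when any 1 of cisplatin replicates 3, 4 and 5 or cotreated replicates 1, 2, 3 and 5 was left out (highest adjusted P 0.0892). Nes, which encodes the intermediate filament nestin, was at 284, 279, 263, 217 and 240 CPM in cisplatin and at 209, 163, 172, 178 and 157 CPM in cotreated tumors (-0.54 ± 0.08, adjusted P = 0.00112, edgeR).

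Bcl7a, a subunit of the SWI/SNF chromatin remodeller, was at 16.9 to 18.5 CPM in cisplatin and 11.6 to 13.4 CPM in cotreated tumors (-0.46 ± 0.07, adjusted P = 0.0012, edgeR). Acsl5, a fatty acyl-CoA synthetase gene, Nxn, nucleoredoxin, and the long noncoding RNA Wincr1 had values of -0.42, -0.36 and -0.96 (adjusted P = 0.00183, 0.00183 and 0.00132, edgeR) and also did not overlap. Exons of Bcl7a, Acsl5 and Ch25h overlap tested genes on the other strand (Gm15860, Zdhhc6 and Gm26902).

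Of 23 feedback and ETS target genes of the MAPK pathway, 5 were lower and 0 higher by edgeR (median -0.21). Dusp5, a phosphatase of nuclear ERK, was at 44, 53.8, 56.4, 42 and 51.3 CPM in cisplatin and at 29.7, 32, 34, 35.4 and 30.7 CPM in cotreated tumors (-0.61 ± 0.10, adjusted P = 0.00183, edgeR). Hbegf, an EGF receptor ligand gene, was at 35.5 to 62.3 and 25 to 33.9 CPM (-0.68 ± 0.14, adjusted P = 0.00774, edgeR). Dusp4, Fosl1 and Phlda1 had values of -0.35, -0.47 and -0.54. Dusp4 stood apart in cisplatin replicate 5 (51.5 CPM), and without that tumor its value was -0.23 (adjusted P = 0.137, edgeR). The count of 5 was 2 without cisplatin replicate 3 or cotreated replicate 2, 3 or 5, and 3 with the run as a term.

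Among adenosine receptors, the target of KW6002 was scarcely detected in these tumors. Adora2a was at 0.203 to 0.859 CPM in cisplatin and 0.11 to 0.443 CPM in cotreated tumors (-0.21 ± 0.39, adjusted P = 0.781, edgeR), and Adora1 did not pass the filter on low counts. Adora2b (ENSMUSG00000018500, chromosome 11, 62248984 to 62266453), the low-affinity receptor, was at 12.9, 12.5, 14.3, 10.4 and 11.2 CPM in cisplatin and at 8.1, 7.58, 7.64, 11.3 and 8.95 CPM in cotreated tumors (-0.50 ± 0.13, adjusted P = 0.0249, edgeR). Cotreated replicate 4 overlapped the cisplatin tumors, and the call was lost without cisplatin replicate 3 or cotreated replicate 1, 2 or 3 (highest adjusted P 0.0822).

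Of 23 genes of adenosine reception and metabolism, 1 was higher (Nt5c2, a cytosolic nucleotidase, 0.36, adjusted P = 0.00713, edgeR) and 2 lower (Adora2b and Entpd1, which encodes the ATP-degrading ectoenzyme CD39, -0.34, adjusted P = 0.0227, edgeR), and the count was 0 without cotreated replicate 2 or 3. Of 28 genes responsive to cyclic AMP and CREB, 0 were higher and 1, Dusp4, was lower by edgeR (median 0.05). There were 0 called without cisplatin replicate 3 or cotreated replicate 2 or 3, 4 without cisplatin replicate 2 and 4 by DESeq2. With the run as a term Dusp4 was lost and Dusp1, a MAPK phosphatase gene, was called higher. A list of protein kinase A subunits and cyclic AMP enzymes (35 listed, 31 tested) was put together after the value of Prkacb was seen. On it Prkacb and the anchoring protein gene Akap13 were higher (6.45%, against 2.29% of all tested genes), a share that Prkacb entered by choice of the list. Rapgef3, a cyclic AMP sensor, was lower (3.23%, against 1.71%), and the list median was 0.04. The count of 3 was 1 without cisplatin replicate 3 or cotreated replicate 2 or 3, and 5 without cotreated replicate 4.

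Most p53 targets did not differ between the groups beyond the spread of the tumors. Cdkn1a, the p53-induced cell cycle inhibitor, was at 461, 581, 550, 470 and 505 CPM in cisplatin and at 622, 537, 495, 518 and 478 CPM in cotreated tumors (0.05 ± 0.11, adjusted P = 0.841, edgeR), and Mdm2 had a value of 0.00 ± 0.09 (adjusted P = 0.982, edgeR). Of 34 targets, Sesn1 was higher and Gdf15, a stress cytokine, lower (-2.11, adjusted P = 0.0249, edgeR), with a list median of 0.04. That is 2.94% in each direction, against 2.29% of all tested genes higher and 1.71% lower. The call of Gdf15 was lost without cisplatin replicate 4 or 5 or cotreated replicate 1, 2 or 3 (highest adjusted P 0.078). Gdf15 is named outside the rule for named genes, after its value was seen. Its mean over the 10 tumors was below the 50 counts asked of named genes, so its value rests on few reads. Against vehicle the median of the list was 0.49 after cisplatin and 0.65 after cotreatment.

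Proliferation markers were lower on average without passing both thresholds. Mki67 was at 337.0 ± 28.3 and 274.4 ± 40.6 CPM (-0.30 ± 0.10, adjusted P = 0.0629, edgeR), Pcna at 83.8 ± 9.91 and 68.1 ± 7.88 CPM (-0.30 ± 0.09, adjusted P = 0.0444, edgeR) and Top2a at 569.8 ± 50.7 and 494.9 ± 40.8 CPM (SD, n = 5; -0.20 ± 0.07, adjusted P = 0.101, edgeR). Ccnd1 had a value of -0.31 (adjusted P = 0.0314, edgeR), just short of the fold limit. It passed with the run as a term (-0.33, adjusted P = 0.0155, edgeR). Within the earlier and the later codes the values were -0.51 and -0.05 for Mki67 and -0.36 and -0.04 for Top2a. For Pcna they were -0.27 and -0.23 and for Ccnd1 -0.41 and -0.27. The difference between the runs passed for none of these genes (adjusted P = 0.617 to 0.943, edgeR).

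Of 51 G2 and mitosis genes 1, Kif23, was lower (1.96%, against 1.71% of all tested genes), and 0 with the run as a term. In this list 47 of 51 values were below 0 (median -0.15, with -0.20 in the earlier and -0.04 in the later codes). Ccne1 was the only called member of 25 G1 cyclins, CDKs and inhibitors (-0.36, adjusted P = 0.0462, edgeR). Kif23 and Ccne1 were each lost in several fits without 1 tumor, cotreated replicates 2 and 3 among them (highest adjusted P 0.0784 and 0.156). Of the G2 and mitosis list 3 were called without cisplatin replicate 1 or cotreated replicate 4, and of the G1 list 2 without cisplatin replicate 1 or 5 or cotreated replicate 4.

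Of 57 genes that repair platinum adducts and crosslinks, Exo1, an exonuclease, and Rad54l, of homologous recombination, were lower (-0.34 and -0.34, adjusted P = 0.0041 and 0.0368, edgeR), with a median of -0.05. These are 3.51% of the list, against 1.71% of all tested genes. Neither overlapped between the groups, and 0 of the list were called without cotreated replicate 3 and 3 without cisplatin replicate 1 or cotreated replicate 4 or 5. The call of Rad54l was also lost without cisplatin replicate 2, 3 or 4 or cotreated replicate 1 or 2 (highest adjusted P 0.128). In the BCL2 family, Bmf and Bcl2l11, which encodes BIM, were the 2 higher members of 18 (median -0.01). The call of Bcl2l11 (0.35, adjusted P = 0.038, edgeR) was lost without cisplatin replicate 3, 4 or 5 or cotreated replicate 1, 2 or 3 (highest adjusted P 0.113).

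Gclc (ENSMUSG00000032350, chromosome 9, 77754535 to 77794485), the rate-limiting enzyme of glutathione synthesis, was at 68.8, 107, 75.2, 91.1 and 118 CPM in cisplatin and at 134, 257, 195, 123 and 191 CPM in cotreated tumors (0.97 ± 0.17, adjusted P = 0.00405, edgeR). The groups did not overlap, and the call held without any 1 tumor. Gss, the next enzyme of the pathway, was lower (-0.33, adjusted P = 0.0226, edgeR), as was the transferase Gstt1 (-0.63, adjusted P = 0.046, edgeR), and over 35 genes of glutathione, metallothioneins and NRF2 the median was -0.02. The calls of Gss and Gstt1 were both lost without cisplatin replicate 1 or 3 or cotreated replicate 2, 3 or 5 (highest adjusted P 0.0822 and 0.136).

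Abcc1, an exporter of glutathione conjugates, was the 1 called member of 16 tested platinum transporters (23 listed), at 223 to 335 CPM in cisplatin and 186 to 216 CPM in cotreated tumors (-0.37 ± 0.09, adjusted P = 0.0146, edgeR). Without cisplatin replicate 5, which had 335 CPM, its change was -0.25, and the call was lost there and without cotreated replicate 2, while 2 transporters were called without cisplatin replicate 1 or 2 or cotreated replicate 5. Of 40 genes of the integrated stress and unfolded protein response, Ddit4 was higher (2.5%, against 2.29% of all tested genes) and Psat1 and Sdf2l1 lower (5.0%, against 1.71%), with a median of -0.12. This count of 3 was 2 without cisplatin replicate 3 or 4 or cotreated replicate 1, 2 or 3, and 5 without cisplatin replicate 2. Among 31 cytosolic chaperones, Dnajb4 and Hspa4l were higher (0.52 and 0.41) and Fkbp4 was lower (-0.35), and 26 of the 31 values were below 0 (median -0.15). Fkbp4, which like Fkbp5 binds the glucocorticoid receptor with HSP90, was at 213 to 248 CPM in cisplatin and 165 to 205 CPM in cotreated tumors (adjusted P = 0.00273, edgeR). The count of 3 chaperones was 1 without cotreated replicate 3 and 5 without cotreated replicate 4.

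In the extracellular matrix and cell contacts, Col4a5 and Col8a1 were lower among 20 collagens (-0.62 and -0.48, adjusted P = 0.0223 and 0.048, edgeR), and 0 were called without cotreated replicate 2 or 3 and 4 without cisplatin replicate 4. Of 14 tested desmosome, plakin and keratin genes (25 listed), Ppl, which encodes periplakin, and Krt20 were higher and Pkp2, a plakophilin gene, was lower (0.74, 1.12 and -0.62, adjusted P = 0.0218, 0.0437 and 0.0312, edgeR), and these too were lost without cotreated replicate 2 or 3. The call of Krt20 was also lost without cotreated replicate 1 or any 1 cisplatin tumor (highest adjusted P 0.137, edgeR). That of Ppl was also lost without cisplatin replicate 3, and that of Pkp2 without cisplatin replicate 4 or cotreated replicate 1. Pkp2 was at 57.4 CPM in cisplatin replicate 5, apart from the others of its group, and without that tumor its value was -0.35 and still passed. The median of the collagens was 0.31 within the earlier and -0.35 within the later codes.

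In 6 pathway lists 0 members were called by edgeR. DESeq2 called 3 members of the oxidative phosphorylation list, 1 of the lysosome list and 0 of the others. In edgeR fits without 1 tumor, up to 3 oxidative phosphorylation genes were called (without cisplatin replicate 1 or 2), up to 2 lysosome genes (without cotreated replicate 4 or 5) and up to 1 of cholesterol and fatty acid synthesis (without cisplatin replicate 1 or 2). At an unadjusted P value under 0.05 in edgeR there were 3883 of all 16665 tested genes. Among them were 22 of 76 oxidative phosphorylation genes, 0 of 7 mitochondrial transcripts and 12 of 35 proteasome genes. So were 11 of 43 lysosome genes, 2 of 32 of cholesterol and fatty acid synthesis and 1 of 29 of hypoxia and glycolysis. Nuclear genes of oxidative phosphorylation had a median of -0.15 with 70 of 76 values below 0. The median was 0.06 for mitochondrially encoded transcripts, -0.08 for the proteasome and -0.05 for lysosomes. For cholesterol and fatty acid synthesis it was 0.06, and for hypoxia and glycolysis -0.22. Within the earlier and the later codes the medians were -0.13 and 0.25 for mitochondrial transcripts. They were 0.03 and -0.04 for lysosomes, and 0.07 and -0.28 for hypoxia and glycolysis. Ctsl, the lysosomal protease cathepsin L, came near, at 2560 to 3092 CPM in cisplatin and 3032 to 3621 CPM in cotreated tumors (0.28 ± 0.07, adjusted P = 0.0171, edgeR), below the fold limit.

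Of the higher genes, 312 of 382 (81.7%) were protein coding, as were 273 of 285 lower genes (95.8%) and 82.2% of all tested genes. Long noncoding or unclassified transcripts made up 66 of the higher genes (17.3%), 10 of the lower genes (3.51%) and 1847 of all tested genes (11.1%). The median genomic span was 30.5 kb for higher, 17 kb for lower and 18.4 kb for all tested genes. These shares are descriptions of the called genes, with no test.

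KW6002 given without cisplatin did not move these genes detectably. Against vehicle, 0 of 16665 genes passed in edgeR (339 at an unadjusted P value under 0.05), and the median change was 0.01 for the 382 higher and 0.00 for the 285 lower genes. The changes by KW6002 with and without cisplatin, 2 comparisons that share no tumor, had r = 0.07 across genes, which are not independent of each other. The test of the difference itself, the interaction, passed in 11 genes (0.066%), of which 6 had a positive value (0.036%) and 5 a negative one (0.03%). They included Stk38, 4930523C07Rik, Enpp2 and Bcl7a, with values of 0.81, 0.80, 0.77 and -0.52. For Fkbp5, Umps, Ccl12 and Prkacb the interaction was 1.06, -0.44, -1.47 and 0.49, with an adjusted P value of 0.0536 for each (edgeR).

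Cotreated replicate 4 was the tumor of its group nearest to cisplatin alone in most called genes. It was the lowest cotreated tumor in 266 of the 382 higher genes (69.6%), against 20.5% of all tested genes, and the highest in 168 of the 285 lower genes (58.9%), against 20.8%. Cotreated replicates 2 and 3 were the highest in 141 and 129 of the 382 higher genes. Replicate 4 also had the most muscle RNA. When it and cisplatin replicate 3, the tumor with the most muscle RNA of its group, were left out together, an alternative added after the data were seen, 740 genes were called, of which 559 were among the 667. The part of muscle RNA was not tested.

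Within the earlier codes (3 cotreated against 2 cisplatin tumors) 344 genes were called (2.06%), 173 higher (1.04%) and 171 lower (1.03%). Within the later codes (2 against 3) 2 genes were (0.012%), 1 in each direction (0.006% each), with 2510 at an unadjusted P value under 0.05 in edgeR. The median change of the 382 higher genes was 0.61 in the earlier and 0.47 in the later codes, and that of the 285 lower genes was -0.47 and -0.43. These medians come from genes called over both runs, so their sign is not independent. The difference between the runs in the effect of cotreatment was tested directly, and 0 genes passed (1300 at an unadjusted P value under 0.05, edgeR). The raised and lowered genes named for their adjusted P values kept their calls in all 10 fits that left out 1 tumor.

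**Figure D5:**
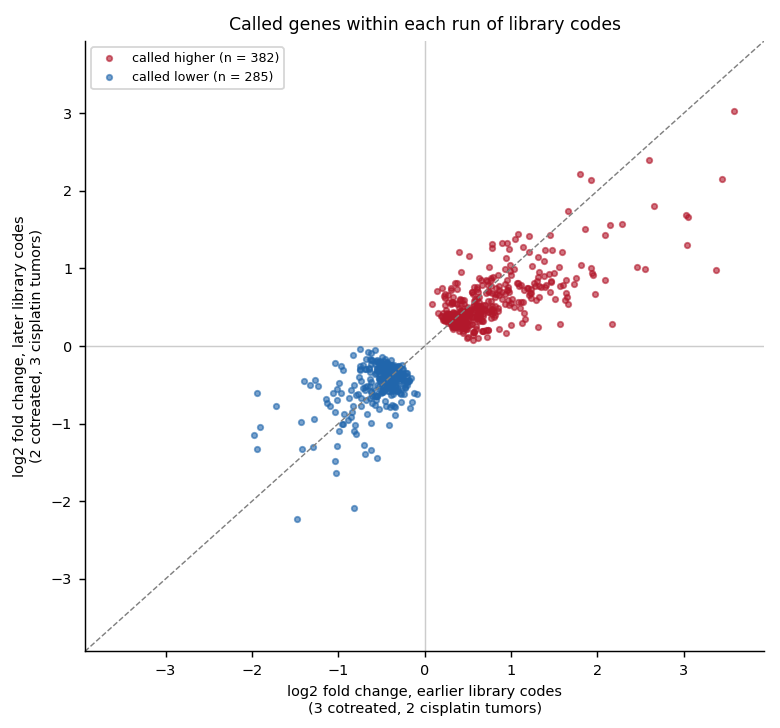
Log2 fold change between cotreated and cisplatin tumors within the earlier library codes (x axis) and the later ones (y axis) for the 382 genes called higher and the 285 called lower over both runs, with the line of equal change dashed. The medians are 0.61 and 0.47 for the higher and -0.47 and -0.43 for the lower genes.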

How the data were processed

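The authors deposited a table of raw read counts per Ensembl gene and tumor. Per the labels and the study's methods, stranded poly(A) libraries were sequenced as single-end reads, aligned to mm10 with STAR, and uniquely aligned reads were counted with HTSeq version 0.6.1p1. The strand option is not given in the sources used here. All 20 columns were matched to samples by library code, and 0 columns were left unused. From these counts, edgeR version 4.0.16 (R version 4.3.3) fitted 4 group means to 20 tumors (filterByExpr, TMM scaling, robust quasi-likelihood, two-sided F-test, Benjamini-Hochberg adjustment over 16665 genes holding 99.9% of counts). Genes were called at an adjusted P value under 0.05 and an absolute log2 fold change of at least 0.32, the thresholds of the study. SE is from the model and SD from 5 tumors. Nothing in the labels says more of the replicates than that they are separate tumors. Reads carried no molecular identifiers.

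The members and gene lists were chosen with earlier results of these data known, and 4 lists (glucocorticoid, FOXO, granzymes, protein kinase A) and the FOXO and glucocorticoid receptor motifs after the values were seen. Lists were described by counts and medians, with no set test. The counts of the 4 lists made after the values were seen are no independent evidence. Named genes were the 10 higher and 10 lower genes with the smallest adjusted P values and the 5 higher and 5 lower with the largest change (called with and without the run term, mean of at least 50 counts, no overlap), 10 preset genes, and of each list up to 3 called members (6 in added lists) or, with none called, the most abundant. Other called members are named by list. Symbols and positions are from GENCODE on GRCm38, and promoters were matched by symbol to RefSeq (11443 tested genes). On simulated data based on these counts (16487 genes), 73.7% of genes changed by a log2 of 1 and 50% of those changed by 0.5 were called. Alternatives were DESeq2 version 1.42.0, other scaling, filters and fold limits, run terms, a replicate block, and leaving out tumors. 1 gene chosen by the rule for named genes is not reported here.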

Additional observations from a re-analysis of the deposited data

Results flagged for a closer look

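Among 222 groups of 5 tumors examined (named genes and marker sums), 20 held a tumor whose gap to the nearest other exceeded 0.71 of the group's range, a level that chance passes in about 1 group in 20. In cotreated replicate 4 these were the skeletal muscle sum (1485 CPM, others 5.8 to 112), the pericyte and smooth muscle sum (145 CPM), Ch25h (6.11 CPM) and Dnajb4 (63 CPM). In cisplatin replicate 3 they were Gzmf (14.9 CPM), Fcrls (77.5 CPM) and Mki67 (289 CPM), and in cisplatin replicate 5 Dusp4 (51.5 CPM), Abcc1 (335 CPM), Ddit4 (120 CPM) and Pkp2 (57.4 CPM). In cisplatin replicate 2 they were Top2a (659 CPM), Zbp1 (7.34 CPM) and Fkbp4 (213 CPM), in replicate 1 Col4a5 (69.1 CPM) and in replicate 4 the B cell sum (19.7 CPM). In the cotreated group they were Bcl7a in replicate 3 (11.6 CPM), Adora1 in replicate 1 (0.367 CPM), Adora2a in replicate 2 (0.11 CPM) and Psmd2 in replicate 5 (325 CPM).

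The effect of KW6002 differed with and without cisplatin, by the interaction term in edgeR, for Stk38 (0.805, adjusted P = 0.0391), 4930523C07Rik (0.796, adjusted P = 0.0391), Enpp2 (0.771, adjusted P = 0.0351) and Bcl7a (-0.522, adjusted P = 0.0453).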

How the results depend on the processing

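The 83 called genes taken by the rule for named genes kept their direction under all alternatives tried, but only 1 of them, Ccl12, also kept its call under all of these, and 38 lost it in at least 1 fit without 1 tumor. Of the 21 other called list members named in the text, none reversed and 17 lost the call in at least 1 such fit. Calls with the spread of these 10 tumors alone were 217 (135 higher, 82 lower), with the run term added to these 412 (228, 184), within the earlier codes 344 (173, 171), within the later codes 2 (1, 1), in a test against the fold limit itself 28 (24, 4), without the fold limit 1086 (537 lower), and without the filter on low counts 485 (185 lower). Leaving out 1 tumor gave 289 to 1013 calls, 179 to 564 higher and 107 to 449 lower. DESeq2 called 862 genes, of which 629 were among the 667, and the other scalings 652 and 663. The sign changed in 6 genes that were not called. Mdm2 was -0.00 with the run term and with upper quartile scaling (-0.002 and -0.004), -0.011 with the run term in the 10 tumors, -0.009 with group by run means and -0.121 within the later codes, where Cdkn1a was -0.03. Within the earlier codes Adora2a was 0.311, Adora3 -0.166, mt-Co1 -0.123 and Pkm 0.07. Without both tumors rich in muscle RNA Adora3 was -0.139. Without 1 tumor Mdm2 ranged from -0.059 to 0.072, Adora2a from -0.373 to 0.215, Adora3 from -0.111 to 0.114, Cdkn1a from -0.018 to 0.095 and Pkm from -0.108 to 0.075. The cause of these shifts was not tested.

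A replicate block called 584 genes (339 higher, 245 lower). Deviations of same-numbered tumors correlated at 0.157, 0.226, 0.193, -0.163 and 0.186, so the numbers are not established as pairs, and not every tumor correlated best with its own number.

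Each comparison within a run rested on 5 tumors, so the few calls within the later codes do not show that a change was absent there.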
